A study of Mus musculus with 9 samples.

Results

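ADAM and ADAMTS genes encode metalloproteases, and the circles of extrachromosomal DNA (eccDNA) that carry their sequence were followed through mouse heart development. The genes were taken by name, as every protein-coding gene in the table of circles whose symbol starts with Adam, which brings in the Adam, Adamts and Adamtsl genes and Adamdec1. The unit was the distinct pair of circle and gene, and 320 of the 68857 pairs in the table (0.465%) belonged to this family. They were made of 319 circles in 40 genes, since a single circle covered both Adamts13 and Adamtsl2. A library was taken to hold a circle if at least 1 split read came from it, that is, a read that runs across the junction where a circle closes.

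The circles were measured by Circle-seq, in which DNA from hearts was treated with alkali, purified on columns, copied with phi29 polymerase and sequenced. Hearts of wild-type C57BL/6J mice gave 3 libraries for each of the stages E18 (embryonic day 18), 3d (3 days after birth) and 8w (adults of 8 weeks), with no other allele and no drug or agent in the labels. The labels call the cells embryonic, neonatal and adult cardiocytes and number the libraries of a stage as biological replicates, while the number of hearts per library and the sex are not given in the labels. The assay reads DNA and not RNA, so marker genes could not be used to check which heart cells gave the circles, and a count of circles says nothing on how strongly a gene is expressed.

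ADAM proteins sit in the cell membrane and cut other membrane proteins near the surface, which frees growth factors, receptors and Notch. ADAMTS proteins are secreted, bind the extracellular matrix through thrombospondin repeats and cut proteoglycans, procollagens and von Willebrand factor. ADAMTS-like proteins have the repeats without the protease. In the mouse heart, Adam19 takes part in forming valves and septa, and ADAMTS enzymes that cut versican reshape the matrix of valves and trabeculae. Several further ADAM proteins are made mostly in testis or epididymis, and Adam11, Adam22 and Adam23 lack a working protease site.

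One of the 3 RefSeq starts of Adam19 was the sole family promoter carried by a circle of up to 100 kb, so its sequence is shown here. RefSeq windows from 250 bases before to 50 bases after a gene start were at hand for 32 family genes, with 34 windows. A circle of 723 bp on chromosome 11 (46054202 to 46054924, GRCm38/mm10) held all 300 bases of the first Adam19 window (chr11:46054252-46054551, plus strand), with 7 split reads in 3d replicate 3 and 0 in the other libraries. The table lists this circle without a gene, because its Adam19 model starts further downstream, so it is not among the 320 pairs. Circles of up to 100 kb touched 2.94% of the family windows and 3.15% of 32815 windows of all genes. The RefSeq sequence (GRCm38.p6) is given 5′ to 3′, with matches to the searched motifs in capitals.
Adam19 promoter: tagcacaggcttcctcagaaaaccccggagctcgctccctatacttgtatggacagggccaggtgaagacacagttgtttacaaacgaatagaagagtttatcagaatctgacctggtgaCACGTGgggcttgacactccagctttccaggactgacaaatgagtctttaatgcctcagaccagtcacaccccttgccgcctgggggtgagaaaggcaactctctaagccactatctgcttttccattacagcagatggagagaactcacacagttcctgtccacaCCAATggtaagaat
On both strands it held 1 match to CACGTG, found in 7.15% of all windows, and 1 match to CCAAT, found in 37.4%. It held 0 matches to TATAAA and to GGGCGG, which are in 13.6% and 35.6% of the windows. Its GC content was 49.3%, with 5 CG pairs, against medians of 52.7% and 7 over all windows. None of these motifs overlapped another in the window.

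Circles in this family were numerous in neonatal hearts and few in adult hearts, but so were circles in general. The E18 libraries held 90, 19 and 23 of them in replicates 1 to 3, the 3d libraries 72, 51 and 83, and the 8w libraries 9, 25 and 9. The stage means were 44.0 ± 39.9 at E18, 68.7 ± 16.3 at 3d and 14.3 ± 9.24 at 8w (SD, n = 3). Each adult library lay below each neonatal library, and the embryonic libraries overlapped both other stages. A total over the family was given no test, because the genes were chosen with results of these data known. Split reads per library ran from 11377 in 8w replicate 1 to 846374 in E18 replicate 1. With every library thinned to 11377 split reads, 19, 9 and 9 family circles were left at E18, 13, 11 and 10 at 3d and 9, 12 and 6 at 8w, and all stages overlapped.

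**Figure D1:**
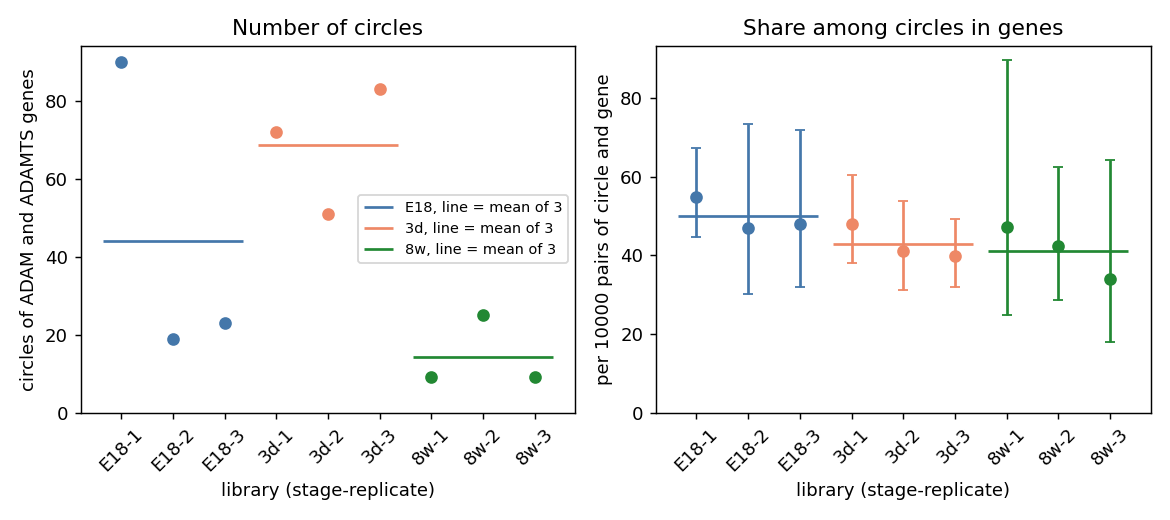
Left, number of circles in ADAM and ADAMTS genes in each library, with a line at the mean of each stage. Right, the same circles per 10000 pairs of circle and gene in the library, with Wilson 95% intervals; the counts run from 9 to 90, while the shares lie between 33.9 and 54.9 and their intervals overlap.

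Among all pairs of circle and gene, the family took a similar share at each stage. It held 54.9, 47.1 and 48.1 per 10000 pairs in the E18 replicates, with Wilson 95% intervals of 44.7 to 67.4, 30.2 to 73.4 and 32.1 to 72.0. The 3d replicates held 48.0 (38.1 to 60.4), 41.0 (31.2 to 53.9) and 39.7 (32.1 to 49.2), and the 8w replicates 47.3 (24.9 to 89.7), 42.4 (28.8 to 62.6) and 33.9 (17.9 to 64.3). Stage means were 50.01 ± 4.26, 42.9 ± 4.43 and 41.2 ± 6.80 per 10000 (SD, n = 3). The stages overlapped and every interval of 1 library overlapped that of each other library, so no difference in share was detectable at this depth. The intervals hold counting error alone, as reads copied by phi29 do not each stand for a separate molecule. Thinned to equal split reads, the shares were 41.7, 32.5 and 42.2 per 10000 at E18, 3d and 8w, which puts 3d lowest.

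Longer genes gave more circles, and the family as a whole followed the density of other genes. Over RefSeq spans, circles of up to 100 kb numbered 64.6 per Mb in 59 family genes (exact Poisson 95% interval 58.0 to 71.8) and 63.6 per Mb in 21828 other protein-coding genes (63.1 to 64.1). In genes of 100 kb and over the values were 65.6 per Mb for 17 family genes and 64.8 for 2412 others. For genes of 20 to 100 kb they were 65.4 (19 genes) and 63.4 per Mb. Under 20 kb they were 40.4 per Mb (17.5 to 79.7, 23 genes) and 55.8. By role, the reproductive ADAM genes had the lowest density, with 42.5 per Mb (27.8 to 62.3), and the proteoglycan-cutting ADAMTS genes the highest, with 72.0 (49.2 to 102). The intervals of these groups overlap. Of the 22 reproductive ADAM genes, 14 (63.6%) had no circle, against 42.3% of other protein-coding genes and 69.5% of other genes under 20 kb. Their interval ends just below the 63.1 to 64.1 of other protein-coding genes and holds the 55.8 per Mb of other genes under 20 kb. The cause was not tested, and which sequence can be mapped was not analysed here.

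**Figure D2:**
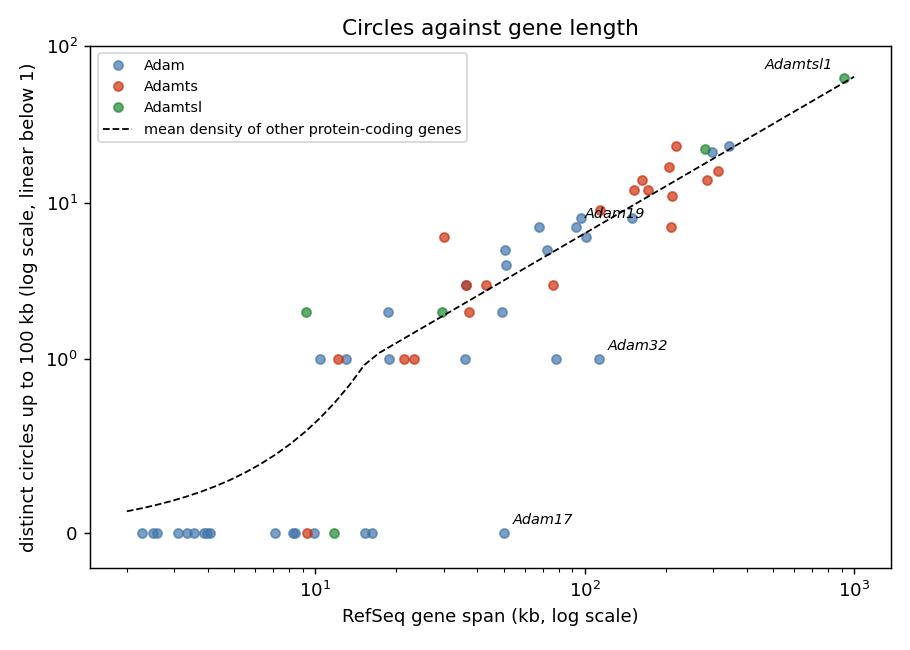
Distinct circles of up to 100 kb over all 9 libraries against RefSeq gene span for 59 family genes, both axes logarithmic (the vertical axis is linear below 1). The dashed line is 63.6 circles per Mb, the density of other protein-coding genes; most family genes lie along it, Adam32 lies well below it with 1 circle, and Adam17 has 0.

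Single genes varied more. Over the table's own spans, and with circles of every size, among genes of at least 20 kb Adamts10, an enzyme of fibrillin microfibrils, was the densest, with 7 circles over 29.6 kb (237 per Mb). It was followed by Adamts13, which cuts von Willebrand factor, with 110 per Mb, Adamts19 with 106, the sheddase Adam9 with 104 and Adamtsl2, a fibrillin-binding protein, with 101. Adamts13 and Adamtsl2 owe these values to 4 and 3 circles, of which a single circle of 1.69 Mb is in both. With RefSeq spans and circles of up to 100 kb, as in the comparison with other genes, Adamts10 had 199 per Mb, Adamts13 82.7 and Adamtsl2 67.5. At the other end, Adam32, a testis gene, had 1 circle over 113 kb (8.88 per Mb), Adam29, also of testis, had 1 over 36.0 kb (27.8 per Mb) and Adamts3, a procollagen protease, had 8 over 209 kb (38.2 per Mb). RefSeq lists 59 family genes, and 19 of them had no line in the table: Adam1a, Adam1b, Adam4, Adam6a, Adam6b, Adam8, Adam17, Adam20, Adam21, Adam24, Adam25, Adam26a, Adam26b, Adam30, Adam34, Adam34l, Adam39, Adamts1 and Adamtsl4. Of these, Adam34l had 1 circle in its RefSeq span and the other 18 had 0. Adam17, the main sheddase of tumour necrosis factor, spans 50.1 kb in RefSeq, where a count of 0 allows up to 59.9 circles per Mb. For Adamts1, a versican-cutting enzyme of 9.29 kb, it allows up to 323 per Mb, so the absence of circles there says little.

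Among the membrane sheddases, Adam12, first known from muscle cell fusion, had the most circles. It held 8, 2 and 1 circles at E18, 3, 5 and 5 at 3d, and 0, 0 and 2 at 8w. Its 24 distinct circles over 349 kb came to 68.8 per Mb, close to the family as a whole. Adam9 held 0 in each E18 library, 4, 0 and 3 at 3d, and 1, 1 and 0 at 8w. Adam19 held 2, 0 and 0 at E18, 2, 0 and 4 at 3d and 0 in each 8w library. Adam10, which cuts Notch, held 3 circles in E18 replicate 3, 3 in 3d replicate 3 and 0 in the remaining libraries. Libraries of the same stage thus ranged from 0 to 4 for a single gene of this group, apart from Adam12. Adam28 had 4 distinct circles, Adamdec1, a secreted member, 2, and Adam15 and Adam33 1 each, and none of these was in an adult library.

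Among Adam11, Adam22 and Adam23, Adam22 held most circles. This nerve cell receptor for the secreted protein Lgi1 was the sole family gene with a circle in all 9 libraries, with 5, 2 and 2 at E18, 7, 2 and 6 at 3d, and 2, 1 and 2 at 8w. Per 10000 pairs it held 3.05, 4.95 and 4.18 at E18, 4.66, 1.61 and 2.87 at 3d, and 10.5, 1.70 and 7.54 at 8w, so the stages overlapped. Adam23, its close relative, held 3, 0 and 1 at E18, 1, 3 and 1 at 3d and 0 in each 8w library. Adam11 had a single circle, which reached 3 libraries. Of 22 reproductive ADAM genes in RefSeq, 8 had a circle in their RefSeq span and 7 had a line in the table, led by Adam5 with 3, 0 and 1 at E18, 1, 4 and 0 at 3d and 0 in the 8w libraries. Adam2, a sperm surface protein, had its 5 circles at 3d, with 1, 2 and 2 in the replicates.

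Among the proteoglycan-cutting enzymes, Adamts20, known from the belted coat of mice, held 1, 1 and 0 circles at E18, 2, 3 and 5 at 3d and 0, 4 and 1 at 8w. Per 10000 pairs these were 0.610, 2.48 and 0 at E18, 1.33, 2.41 and 2.39 at 3d and 0, 6.79 and 3.77 at 8w. Adamts9, which cuts versican, held 2, 0 and 0 at E18, 6, 2 and 4 at 3d and 2, 0 and 0 at 8w. In number its 3d libraries were at or above all others, and per 10000 pairs 8w replicate 1 was the highest, with 10.5 from 2 circles. Another gene, A730049H05Rik, overlaps Adamts9, and 2 of the 12 circles lay in both. Adamts5 had 3 circles and Adamts4, Adamts8 and Adamts15 1 each, that of Adamts15 in 8w replicate 2 with 3 reads. The group took 6.06% of family circles at E18 (8 circles), 11.7% at 3d (24) and 18.6% at 8w (8), counts too small to set the stages apart.

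Among the procollagen proteases, Adamts2 alone reached the 10 circles needed for the test between stages, and it had the lowest edgeR unadjusted p of the family. Adamts2, which removes the amino-terminal propeptide of fibrillar collagens, held 9, 1 and 3 circles at E18, 1, 3 and 2 at 3d, and 0, 0 and 1 at 8w. Per 10000 pairs it held 5.49, 2.48 and 6.27 at E18, 0.666, 2.41 and 0.958 at 3d, and 0, 0 and 3.77 at 8w. The lowest E18 share, 2.48, was close to the highest 3d share, 2.41, and 8w replicate 3 lay between E18 values. Adamts3 held 1, 0 and 2 at E18, 2, 0 and 2 at 3d and 0, 0 and 1 at 8w. Adamts14 had its 3 circles at 3d, with 0, 1 and 2 in the replicates.

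The remaining ADAMTS genes made up the largest group, with 98 distinct circles in 9 genes (30.6% of the family). Adamts19 held 7, 2 and 0 circles at E18, 3, 5 and 8 at 3d and 0, 1 and 0 at 8w. Per 10000 pairs it held 2.00, 4.02 and 3.83 at 3d against 0, 1.70 and 0 at 8w. The lowest 3d value and the highest 8w value were close, with 2.00 from 3 circles and 1.70 from 1 circle. The adult values of 0 come from small libraries, with 1901 and 2654 pairs of circle and gene. The E18 libraries, with 4.27, 4.95 and 0, overlapped both other stages. Adamts17 held 3, 1 and 0 at E18, 6, 2 and 5 at 3d and 0, 3 and 0 at 8w. Adamts12, which cuts cartilage oligomeric matrix protein, held 1, 2 and 2, then 2, 2 and 4, then 0, 1 and 0 circles. Adamts18 held 4, 0 and 0 at E18, 3, 0 and 3 at 3d and 0, 3 and 0 at 8w. Adamts6, a relative of Adamts10, held 5, 0 and 1, then 3, 1 and 2, then 0, 1 and 0. Adamts16 held 5, 1 and 1, then 3, 0 and 1, then 0, 0 and 1. In each of Adamts19, Adamts18, Adamts6 and Adamts16, E18 replicate 1, the most deeply sequenced library, had the highest number of its stage. Adamts10 held 0, 1 and 0 at E18, 1 in each 3d library and 1, 4 and 0 at 8w, which made it the member with the highest adult share of its own circles among those with 5 or more (5 of 9). Of these adult circles, 1 was the 8.69 Mb circle with a single read.

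ADAMTS-like genes held 52 distinct circles. Adamtsl1, also called punctin, had 25 over the 374 kb of its model in the table, with 8, 0 and 0 at E18, 6, 5 and 8 at 3d and 1, 3 and 0 at 8w. Adamtsl3, a related matrix protein, had 22, with 4, 3 and 3 at E18, 4, 5 and 5 at 3d and 0, 1 and 1 at 8w. Adamtsl3 varied least between E18 and between 3d replicates among the 5 genes with the most circles, with stage means of 3.33 ± 0.577, 4.67 ± 0.577 and 0.667 ± 0.577 (SD, n = 3), and its adult numbers lay below all others. Per 10000 pairs its 8w values of 0, 1.70 and 3.77 overlapped the 2.67, 4.02 and 2.39 of 3d.

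**Figure D3:**
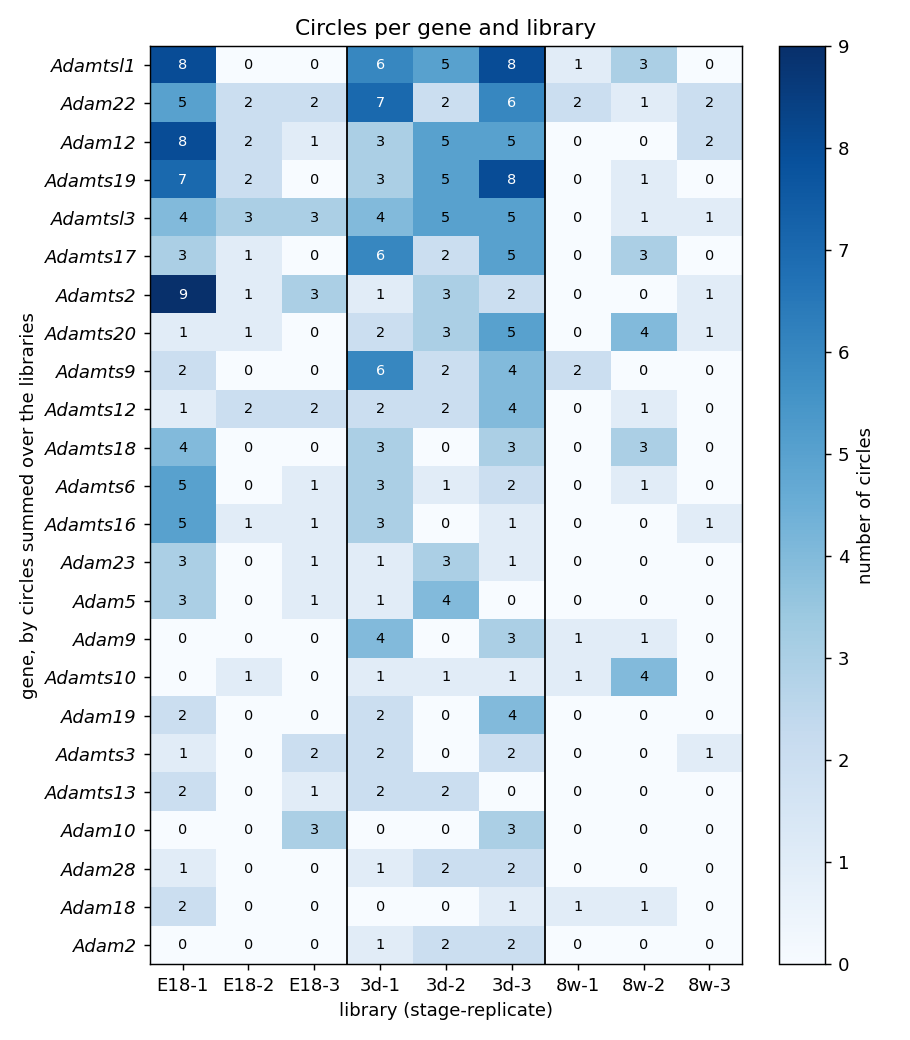
Number of circles in each library for the 24 family genes with at least 5 circles summed over the libraries, with genes in rows and libraries in columns, darker for more. Adam22 has a circle in every library, E18 replicate 1 and the 3d libraries hold most of the circles, and most adult cells are 0 or 1.

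No family gene passed the test between stages. The test was the quasi-likelihood test of edgeR on the number of circles per gene, with Benjamini-Hochberg adjustment over the 2174 genes that had at least 10 circles summed over the libraries, and 13 of the 40 family genes reached that number. Reaching it favours long genes and genes high at any 1 stage, so the 13 do not stand for the family. With edgeR, 0 of 13 were called in 3d over E18, where 0% of all tested genes were called. The adult hearts gave 0 of 13 against 0% over 3d, and 0 of 13 against 0% over E18. DESeq2 also called 0 of 13 in each comparison, and 0 of 2174. At an unadjusted p under 0.05, edgeR gave 1 of 13 family genes (7.69%) in each comparison, against 3.91% of all genes for 3d over E18, 12.1% for adult over neonatal and 7.04% for adult over embryonic hearts. DESeq2 gave 0 of 13 in each at that level, against 0.690%, 3.73% and 2.53% of all genes in the same order. The 3d libraries enter 2 of these comparisons, as do those of E18 and 8w, so the comparisons are not independent.

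The fitted log2 changes carry a shift shared by all genes, with a median of 0.26 when 3d is set over E18, of -0.79 when 8w is set over 3d and of -0.57 when it is set over E18, and values are given relative to it. The 13 family genes had a median of -0.30, -0.24 and -0.88 relative to that of all genes, whose SD over genes was 0.88, 1.39 and 1.51. For 3d over E18, 4 were above the median of all genes and 9 below, and for adult hearts 5 and 8 over 3d, 6 and 7 over E18. Adamts2 was lower at 3d than at E18 by a relative log2 change of -1.98 (SE 0.74, edgeR unadjusted p = 0.0199, adjusted 0.989). It stood at -2.18 in 8w over E18 (SE 1.17, edgeR unadjusted p = 0.0184, adjusted 0.621). Adamts19 stood at -1.57 in 8w over 3d (SE 1.17, edgeR unadjusted p = 0.0434, adjusted 0.386) and at -1.67 in 8w over E18 (unadjusted p = 0.0750). None of these passed after adjustment. SE and p belong to the change before the median was taken off, so they depend on the scaling. The SE was derived from that change and the F value of the test, so it is not a separate measure of spread. The next smallest p values were those of Adamts9 (1.45) and Adamts16 (-1.66) in 3d over E18, Adamtsl3 (-0.53) and Adam12 (-0.42) for 8w over 3d, and Adam12 (-1.08) where 8w is set over E18, with edgeR unadjusted p from 0.0852 to 0.245.

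Genes that act with these proteases did not pass either. Of 14 inhibitors and maturation factors, such as the Timp genes, the iRhoms and the tetraspanins that guide Adam10, 11 had a circle, 2 were tested and 0 were called in either direction in any comparison (edgeR). Of 31 substrates, such as versican, fibrillins, Notch receptors and ErbB ligands, 30 had a circle, 10 were tested and 0 were called. Of all tested genes, 0% were called in any comparison. At an unadjusted p under 0.05 (edgeR), 1 inhibitor or maturation factor appeared in 8w over E18, against 7.04% of all tested genes. No other gene of these lists appeared in any comparison, against 3.91% of all genes in 3d over E18 and 12.1% in 8w over 3d. With 2 and 10 genes tested, these counts cannot set the lists apart from other genes.

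Family circles were short and came in sizes that differed in adult hearts, as for genes in general. The 314 circles of up to 100 kb ran from 70 to 2624 bp, with a median of 371.5 bp against 370 bp over all such pairs. The median per library was 372, 373 and 385 bp at E18 and 383, 377 and 389 bp at 3d, and the 8w replicates had 243, 143 and 111 bp. Stage means were 377 ± 7.23, 383 ± 6.00 and 166 ± 68.9 bp (SD, n = 3), and every adult library lay below every other library. Medians over all pairs of circle and gene were 358, 138 and 105 bp in the 8w replicates and 370 to 524 bp elsewhere. In 3d replicate 3 the family's 389 bp lay under the 524 bp of all pairs, and in the other 3d libraries the medians differed by at most 7 bp.

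**Figure D4:**
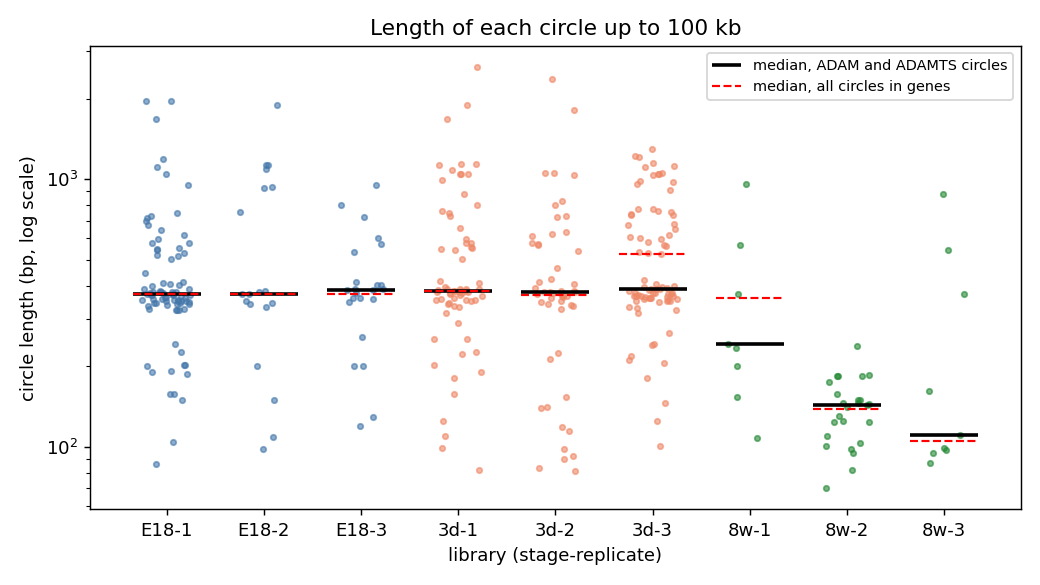
Length of each family circle of up to 100 kb in each library, on a log axis, with the median of all family circles (black) and of all circles in genes (red, dashed). Points gather near 370 bp at E18 and 3d, and below 250 bp lie 25 of 25 circles in 8w replicate 2 and 6 of 9 in replicate 3.

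Under 250 bp lay 13 of 90, 4 of 19 and 4 of 23 family circles in the E18 replicates and 10 of 72, 12 of 51 and 9 of 83 in the 3d replicates. In the 8w replicates it was 5 of 9, 25 of 25 and 6 of 9, with Wilson 95% intervals of 26.7 to 81.1%, 86.7 to 100% and 35.4 to 87.9%. As stage means these were 17.6 ± 3.31%, 16.1 ± 6.62% and 74.1 ± 23.1% of family circles (SD, n = 3), and over all pairs of circle and gene it was 21.1 ± 1.82%, 16.3 ± 9.14% and 69.6 ± 27.0%. Circles of 250 to 450 bp made up 51.0 ± 7.79%, 45.8 ± 2.29% and 7.41 ± 6.42% of the family, with 2 such circles in all adult libraries. Over all pairs they made up 48.4 ± 2.36%, 43.9 ± 2.18% and 15.3 ± 10.6%. In 8w replicate 2 there were 0 of 25, which allows a share of up to 12%. The shortest circle, of 70 bp in Adamts12 (chromosome 15, 11212838 to 11212907), had 26 reads in 8w replicate 2. The longest of up to 100 kb was in Adam2, with 2624 bp (chromosome 14, 66059663 to 66062286) and 8 reads in 3d replicate 1.

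Whole genes were carried only by 5 very large circles, and all other 314 pairs lay wholly inside their gene. A circle of 8.69 Mb on chromosome 17 (27332906 to 36018529) covered Adamts10 among 259 genes, with 6 reads in 3d replicate 3 and 1 in 8w replicate 1. Circles of 8.50 Mb on chromosome 7 (127058351 to 135557843, 43 reads) and 6.00 Mb on chromosome 11 (44083796 to 50084932, 13 reads) covered Adam12 and Adam19 in E18 replicate 1. Adamts3 lay on a circle of 3.95 Mb on chromosome 5 (86201304 to 90148033) with 21 reads in 3d replicate 1. Adamts13 and Adamtsl2 lay together on 1.69 Mb of chromosome 2 (26552032 to 28239847), with 11 reads in E18 replicate 1 and 3 in 3d replicate 1. These sizes rest on the coordinates of split reads, and no read coverage across the circles was analysed here.

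Inside the genes, no circle of the table's family lines crossed a gene start or end. The nearest to a start lay 525 bp inside Adamts14 (1035 bp, chromosome 10, 61271879 to 61272913, 16 reads in 3d replicate 2). The next were 592 bp inside Adam10 (401 bp, chromosome 9, 70679590 to 70679990, 7 reads in E18 replicate 3) and 878 bp inside Adamts13. With genes of at least 20 kb cut into 5 equal parts from start to end, 19.3, 18.3, 16.3, 24.8 and 21.2% of 306 family circles fell in each, against 19.7 to 20.2% of 59355 circles over all genes. Exons and introns were not analysed here.

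**Figure D5:**
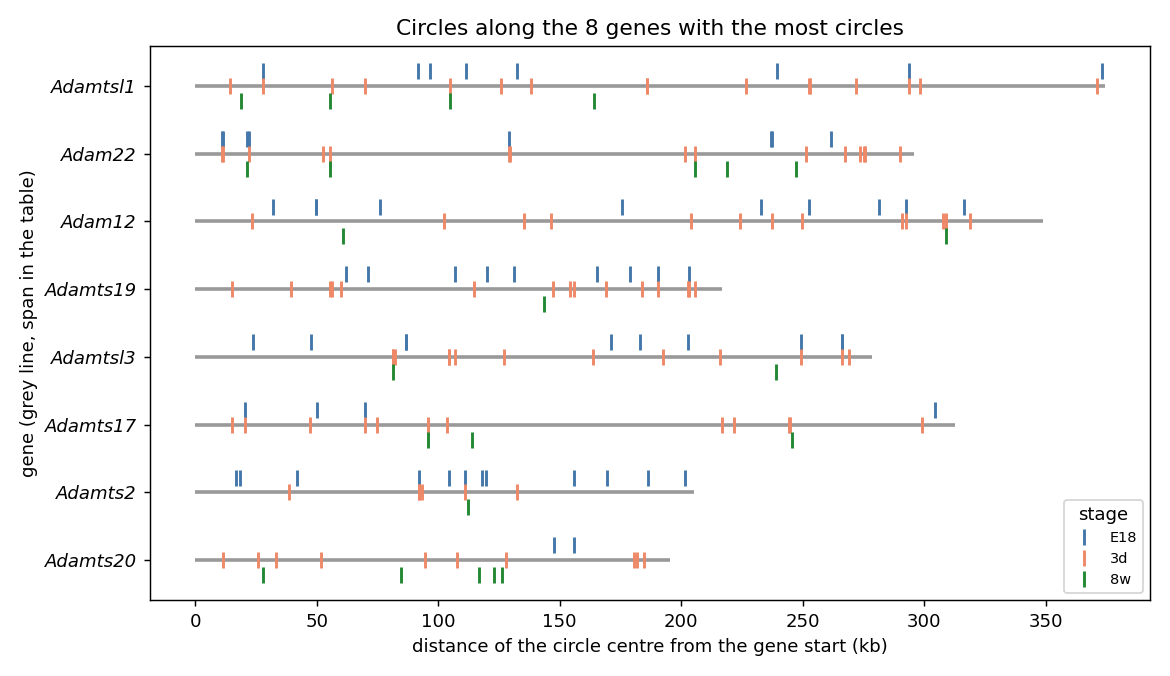
Centre of each circle of up to 100 kb along the 8 family genes with the most circles, as distance from the gene start in kb, coloured by the stage in which it was present. Circles are spread over the whole length of each gene at E18 and 3d, with few adult circles on any gene.

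Most family circles were seen in a single library. Of the 320 pairs, 261 (81.6%) were in 1 library, against 80.1% over all pairs, 57 were in 2, 2 in 3 and 0 in more. Of the 59 in more than 1 library, 41 included 3d replicate 1, and in 22 of these it had a single read there. That library held 24 of its 72 family circles (33.3%) by a single read, the same share as the 3 of 9 in each of 8w replicates 1 and 3. Over all pairs the share was 39.6% in 3d replicate 1 and 66.1% in 8w replicate 1. Leaving it out, 20 pairs were in more than 1 library, and with 5 or more reads in each, 2 of the 320 were in more than 1. By stage, 97 pairs were at E18 alone, 151 at 3d alone and 30 at 8w alone, and 13.1% were at more than 1 stage, against 12.6% over all pairs. Counted by gene, 33 family genes had a circle at E18, 34 at 3d and 19 at 8w, 17 had one at every stage, and Adamts15 was the sole gene with one at 8w alone. These numbers are at unequal depth. With every library thinned to 11377 split reads, single libraries held circles in 15, 9 and 8 family genes at E18. The thinned values were 9, 9 and 7 at 3d and 7, 8 and 6 at 8w. Reads per pair had a median of 10 and a maximum of 119.

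A circle of 371 bp near the end of Adam11 (chromosome 11, 102779074 to 102779444), 818 bp before the end of the gene, was the sole family circle at all 3 stages, with 22 reads in E18 replicate 1, 2 in 3d replicate 1 and 2 in 8w replicate 1. The other circle in 3 libraries lay in Adamts13 (803 bp, chromosome 2, 26974295 to 26975097), with 1 read in E18 replicate 3, 2 in 3d replicate 1 and 4 in 3d replicate 2. A circle of 377 bp in Adam23 (chromosome 1, 63529219 to 63529595) had 41 reads in E18 replicate 1 and 30 in 3d replicate 2, the best supported of the shared circles in both its libraries. By contrast, circles in Adamtsl3 (1891 bp, chromosome 7, 82584209 to 82586099) and Adamts10 (728 bp, chromosome 17, 33533620 to 33534347) had 74 and 67 reads in a 3d library and 1 and 3 in another. The most reads in a library belonged to circles private to it. They were 119 for 377 bp in Adamtsl5 (chromosome 10, 80345681 to 80346057, E18 replicate 1) and 117 for 625 bp in Adamtsl1 (chromosome 4, 86352086 to 86352710, 3d replicate 2). Circles in Adam22 (391 bp, 94 reads) and Adamts18 (736 bp, 86 reads) followed in 3d replicate 3, and one in Adam12 (201 bp, 84 reads) in E18 replicate 3.

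Circles that overlap each other came from the same libraries. Within family genes, 32 of the 314 circles of up to 100 kb (10.2%) overlapped another, against 5.32% of 64866 over all genes. They formed 16 overlapping pairs in 10 genes, 4 of them in Adam22 and 4 in Adamtsl3. In 16 of 16 both circles were present in at least 1 common library, against 84.2% of 1762 overlapping pairs over all genes. In Adamtsl1, circles of 1044 and 1042 bp whose ends differ by 1 bp on each side (chromosome 4, 86239345 to 86240388 and 86239346 to 86240387) had the same reads, 1 in 3d replicate 1 and 9 in 3d replicate 3. In Adam23, a circle of 422 bp with 45 reads in 3d replicate 2 shared 76 bp with the 377 bp circle named above. In Adamtsl3, circles of 397 and 401 bp in E18 replicate 1 with 27 and 32 reads shared 343 bp. No test was run on these shares.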

How the data were processed

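For each library the authors deposited split read counts per circle, as called with Circle-Map per the file headers. Builds GRCm38 and mm10 appear in the submitters' processing notes, as do bedtools 2.27.1, SAMtools 1.9, BWA 0.7.12, cutadapt 1.9.1 and an edgeR listed as 0.6.9. Filters on circles were not given in these sources. The authors' normalized columns were not used. Coordinates are printed counting from 1.

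Circles per gene and library were counted from the deposited counts and tested in 1 model of the 9 libraries by stage, without a replicate term (edgeR 4.0.16, TMM scaling, threshold 0.05), with DESeq2 1.42.0 beside it (size factors from positive counts). The script was tested on simulated data. RefSeq spans and promoters are of GRCm38.p6. Python 3.11.15, pandas 2.3.3, SciPy 1.17.1, statsmodels 0.14.6 and R 4.3.3 were used.

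Named were genes with at least 10 circles, the 3 smallest p in each comparison, the 5 densest and 3 sparsest genes of at least 20 kb and genes with no line. Named circles were the 5 in the most libraries, the 5 with the most reads in a library, the longest, and those over a gene start. Others named were chosen after their values were seen. Members and lists were chosen with earlier results of these data known. Replicate p-values measure the spread between libraries.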

Additional observations from a re-analysis of the deposited data

Results flagged for a closer look

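Both results below lie outside the 320 pairs on which the comparisons between stages rest. Circles of up to 100 kb there do count in the density over RefSeq spans. The limit taken above for a count of 0 was 3 counts. Split reads of 1 circle cannot be set against it, as reads copied by phi29 do not each stand for a separate molecule. RefSeq gives Adamtsl1 a span of 915 kb on chromosome 4, while the table's model spans 374 kb. In the part of the RefSeq span before the table's model (85513852 to 86053915), 37 further circles lay, of which 6 are listed under another gene. They numbered 9, 4 and 3 at E18, 10, 7 and 7 at 3d, and 1, 2 and 0 at 8w, so with RefSeq's span Adamtsl1 has 62 circles of up to 100 kb in place of 25, and E18 replicates 2 and 3 are no longer at 0. The circle of 723 bp over the Adam19 start had 7 split reads, all in 3d replicate 3.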

How the results depend on the processing

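The number of family genes called was 0 in each comparison under each of 16 alternatives, DESeq2 among them, and over all tested genes it was 0 except for 1 in 8w over 3d with library totals alone. At an unadjusted p under 0.05 (edgeR or DESeq2), 0 to 3 family genes appeared in 3d over E18 and 0 to 2 in the other comparisons. Between 10 and 40 family genes were tested. The shares of all tested genes ran from 0.690 to 8.19% in 3d over E18, 3.31 to 13.8% in 8w over 3d and 1.68 to 12.3% in 8w over E18. The 3 appeared with a filter of at least 5 circles (3 of 24, against 5.87% of all genes) and with no filter (3 of 40, against 2.46%). No pairing by replicate number was seen. Deviations from the stage means correlated at -0.044 to 0.010 in 9 same-numbered pairs of libraries and at -0.027 to 0.066 in the other pairs. The genes compared needed only 10 circles over the 9 libraries, so this check could miss a pairing. With the replicate block 0 family genes were called. Of all genes, 44, 152 and 81 had an edgeR unadjusted p under 0.05 with the block, against 85, 263 and 153 without it. Thinning to equal split reads moved the number at 3d to 11.3, the share per 10000 pairs to 41.7 at E18 and 32.5 at 3d, and the median length to 505 bp at E18 and 481 bp at 3d; the cause of the length change was not tested. With at least 2 split reads the 8w share was 55.5 per 10000 and the 3d median length 408 bp. Leaving out single libraries, the number ran from 21.0 to 56.5 at E18, 61.5 to 77.5 at 3d and 9 to 17.0 at 8w. The share ran from 47.6 to 51.5, 40.4 to 44.5 and 38.2 to 44.9, and the median length from 372.5 to 379 bp, 380 to 386 bp and 127 to 193 bp. Adam12, as relative log2 changes, turned to 0.81 over 3d and 0.21 over E18 without 8w replicate 2 and fell to -3.99 and -4.76 without 8w replicate 3, and the other 7 named changes kept their direction under the alternatives that could be fitted, but not their size. Without 8w replicate 2, Adamts19 stood at -3.62 over 3d and -3.65 over E18, Adamts2 at -0.94 over E18 and Adamtsl3 at -0.21 over 3d. Without 8w replicate 3, Adamts2 stood at -4.99 and Adamtsl3 at -0.97, without 8w replicate 1 or 3d replicate 2 Adamtsl3 stood at -0.24 and -0.34, and without E18 replicate 1 Adamts9 stood at 3.79 in 3d over E18. Adam12 over 3d stood at -0.14 to -0.67 without 8w replicate 1, 3d replicate 1 or 3d replicate 2. Adamts2 in 3d over E18 had adjusted p from 0.707 to 1.00. Its unadjusted p there was 0.207 without E18 replicate 1 and 0.00516 with library totals alone (edgeR), and 0.0876 with DESeq2. Adamts19 in 8w over 3d had unadjusted p from 0.0216 to 0.558 over the settings (edgeR or DESeq2). The highest came with split reads per gene, where its relative log2 change was -0.19. It was 0.172 with library totals alone (edgeR) and 0.0806 with DESeq2. Density over the genes with circles was 68.6 per Mb with the table's spans and all circles, and 67.5 with RefSeq spans and circles of up to 100 kb, a change of both choices together. Adult values rest on few circles, with 9 family circles in each of 2 libraries.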
